A study of Mus musculus with 11 samples.

Results

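Kupffer cells (KCs) from 2 control libraries, neither carrying a deleted gene, were compared with each other to find which genes and cell states differ between control KCs and which stay constant. The members were the cell barcodes with at least 1 unique molecular identifier (UMI, a counted RNA molecule) of Clec4f, the C-type lectin that marks KCs. By this rule 4604 of 4645 barcodes of the Zeb2fl/fl library and 3858 of 3869 barcodes of the Nr1h3fl/fl library were members, which makes 8462 of the 51712 barcodes in the 11 libraries of the series.

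The series is a droplet single-cell RNA-seq study (10x Genomics, counting from the 3′ end) of the transcription factor ZEB2 in macrophages (macs) of several mouse tissues. The Zeb2fl/fl mice carry loxP sites around both copies of Zeb2, the Nr1h3fl/fl mice carry them around both copies of Nr1h3, which encodes the nuclear receptor LXRα, and both control libraries are labelled WT with no CRE in the genotype. According to the methods of the study, the mice were young adults of either sex on a C57BL/6 background kept under specific pathogen-free conditions, controls were littermates, and live CD45+CD64+F4/80+Clec4F+ cells were sorted from the liver for the Zeb2 line. A separate sort for the Nr1h3 line is not described. Each genotype had 1 library, and the number of mice behind a library is not given, so genotype, animals, day of preparation and library cannot be told apart and no test was made. Values are given with intervals for counting error only.

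KCs are the resident macs of the liver sinusoids. They clear bacteria, dying cells and aged erythrocytes from portal blood, recycle haem iron and handle lipoproteins. Their identity rests on a set of transcription factors that includes LXRα, ZEB2, ID3 and SPIC, and on surface molecules such as CLEC4F, TIM4 (Timd4), VSIG4 and CD5L.

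Markers that the rule did not use fitted the label. Vsig4 was at 3310 CPM in Zeb2fl/fl and 3149 CPM in Nr1h3fl/fl KCs (CPM are counts per 1000000 summed UMIs) against at most 14.2 CPM in the WT macs of the other 4 tissues, and Timd4 was at 564 and 483 CPM against at most 57.2 CPM. Clec4f itself, which chose the members, was found in 99.1% of Zeb2fl/fl and 99.7% of Nr1h3fl/fl barcodes, with a median of 29 and 17 UMIs in the KCs that were compared, so the minimum of 1 UMI cut off few cells. Just outside it, 41 and 11 barcodes had no Clec4f UMI, and 12.2% and 9.09% of these had a Timd4 UMI. Just inside it, 66 and 26 barcodes had exactly 1 Clec4f UMI, and 22.7% and 30.8% of them had a Timd4 UMI. In the droplets of a cluster of B cells, which should lack Clec4f, 83.6% (Zeb2fl/fl) and 73.5% (Nr1h3fl/fl) of cells thinned to 2000 UMIs still held a Clec4f UMI, with median depths of 3500 and 4136 UMIs before thinning. The rule therefore let in cells of other types whose droplets held Clec4f RNA.

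For that reason 385 and 162 members that fell into clusters of liver sinusoidal endothelial cells (LSECs), B cells, dendritic cells and T or NK cells were left out, after 3673 (Nr1h3fl/fl) and 4293 (Zeb2fl/fl) members had passed the quality filter. The sums below rest on 3908 Zeb2fl/fl KCs with 23224172 UMIs and on 3511 Nr1h3fl/fl KCs with 18064316 UMIs. The libraries stood apart in quality. Zeb2fl/fl KCs had a median of 5306.5 UMIs and 1915.5 genes, Nr1h3fl/fl KCs of 4455 UMIs and 1745 genes, and the median mitochondrial share was 2.92% and 5.01%. The libraries shared 23 cell barcodes.

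Few genes differed by 2-fold between the control libraries, and fewer than 50% were near equal. Every ratio below is Nr1h3fl/fl over Zeb2fl/fl, on the log2(CPM + 1) scale unless it is called a fold. Of 5563 genes with at least 20 CPM in the higher library, 47.9% lay within 0.25 (log2) of each other, and 74 (1.33%) differed by a log2 ratio of at least 1, the limit used for a call. Among the called genes 27 (0.485%) were higher and 47 (0.845%) were lower in Nr1h3fl/fl. Without a small cluster led by Slpi, described below with the genes it carries, 25 were higher and 30 lower. Of all genes, 34.7% lay above 0.25 and 17.4% below -0.25, and the median was 0.09. With TMM scaling (trimmed mean of M values) in place of the plain total, the median was -0.02 and the split 16 higher against 54 lower.

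Abundance did not remove the differences. Past the limit were 1.39% of genes at 20 to 50 CPM, 0.869% at 50 to 200 CPM, 1.98% at 200 to 1000 CPM and 3.77% of the 159 genes at 1000 CPM or more. For scale, 263 genes (4.87%) passed the limit and 62.7% lay within 0.25 between the Zeb2fl/fl library and the Zeb2KO KC library, so that the controls had fewer genes past the limit but also fewer within 0.25. The Zeb2KO mice carry a CRE transgene in addition to the same loxP alleles (Fcgr1-cre by the labels, Clec4f-cre by the methods). By the paper, their KCs are a mix of cells that lost both copies of Zeb2 and cells that kept a copy. The Zeb2KO values here and below are for that mix and not for full deletion. From 21.7% (colonic macs) to 36.9% (microglia) of genes passed the limit between Zeb2fl/fl KCs and the WT macs of the other 4 tissues. All of these comparisons share the Zeb2fl/fl library.

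**Figure D1:**
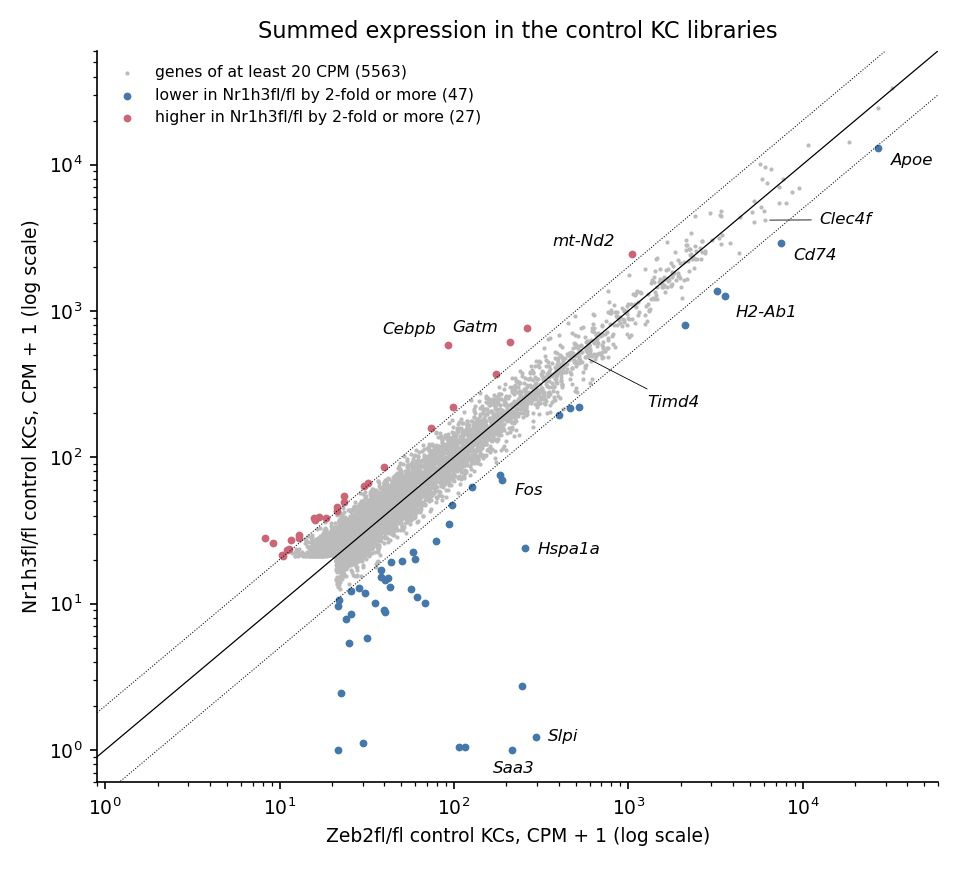
Each point is 1 of 5563 genes, with its summed level in Zeb2fl/fl KCs on the x axis and in Nr1h3fl/fl KCs on the y axis (CPM + 1, log scales). The solid line marks equal levels and the dotted lines 2-fold. The 27 genes called higher (red), led by Cebpb, and the 47 called lower (blue), which include Apoe, Cd74, H2-Ab1 and Hspa1a, stand outside a cloud that holds Clec4f and Timd4.

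The KC identity genes differed about as often as other genes. Of 25 measured (of 26 listed, Clec2h having 2 UMIs in each library), 1 was called higher, none was called lower and 11 lay within 0.25, with a median ratio of 0.18. Against all genes, where 1.33% were called and 47.9% lay within 0.25, these shares are near the background. Set beside the WT macs of the other tissues, 18 of the 25, Clec4f included, which chose the members, were above every one of the other 4 tissues in both control libraries, and 11 were at least 4-fold above the highest of them. The other 7 (Kcna2, Slc16a9, Paqr9, Cd38, Slc40a1, Cd55 and Gfra2) were below splenic macs in at least 1 control. Of these, Cd55, at 66.5 CPM in splenic macs, and Cd38, at 324 CPM, were below them in Zeb2fl/fl and above them in Nr1h3fl/fl.

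Among surface molecules and receptors, Clec4f was at 6130 CPM in Zeb2fl/fl and 4175 CPM in Nr1h3fl/fl (log2 ratio -0.55), and Timd4, a receptor for phosphatidylserine on dying cells, at 564 and 483 CPM (-0.22). Vsig4, a receptor for complement-coated particles, was at 3310 and 3149 CPM (-0.07), and Cd207 (Langerin) at 231 and 242 CPM (0.07). The sign was the same in all 7 KC clusters with at least 30 members of each library for Clec4f and Timd4, both lower in Nr1h3fl/fl. The clusters are parts of the same libraries and not replicates, so a shared sign, here and below, describes the spread over cells only. Marco, a scavenger receptor for bacteria, was the identity gene with the second largest difference at 353 and 655 CPM (0.89). It was higher in 7 of 7 KC clusters. A Marco UMI was found in 27.2% and 48.0% of thinned cells (40.7% and 63.7% before thinning), against 17.1% and 26.5% of thinned cells in the B cell cluster.

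Among secreted and metabolic identity genes, Hpgd, which breaks down prostaglandins, stood at 1303 and 1299 CPM (0.00), Apoc1 at 5802 and 5142 CPM (-0.17), Cd5l at 5282 and 4045 CPM (-0.38) and the complement component gene C6 at 499 and 583 CPM (0.22). The iron exporter Slc40a1 (ferroportin) stood at 2167 and 2830 CPM (0.38), and the haemoglobin-haptoglobin receptor Cd163 at 333 and 490 CPM (0.55). Cd55, a surface inhibitor of complement, was the identity gene called higher, at 38.8 and 84.6 CPM (1.11). That call fell to 0.79 when the clusters of other cell types were kept.

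Among the listed transcription factors of KCs 1 gene passed the limit. Called factors outside that list, such as Pou2f2, Fos, Jun and Fosb, are given below. Of 25 measured factors of KCs, Cebpb was called higher, none was called lower and 11 (44%) lay within 0.25, 10 above it and 4 below -0.25, with a median of 0.17. Over all genes 1.33% were called and 47.9% lay within 0.25. Nr1h3 itself was at 396 and 479 CPM (0.27) and Zeb2 at 388 and 518 CPM (0.42), both slightly higher in Nr1h3fl/fl and both higher in 7 of 7 KC clusters, so neither loxP-flanked gene was lacking from its own control. These 3′ counts do not check the loxP-flanked exons, since transcripts of a deleted allele would keep their 3′ end. None of the 31 genes measured within 10 Mb of Nr1h3 (chr2:91184061-91202834, minus strand) or the 27 within 10 Mb of Zeb2 (chr2:44983632-45117395, minus strand) was called, numbers of genes in which the 1.33% called overall would also give few or none. Spic, which drives iron recycling in macs, was at 94.1 and 112 CPM (0.25), Id3 at 916 and 790 CPM (-0.21), Spi1 (PU.1) at 661 and 507 CPM (-0.38) and Irf8 at 229 and 198 CPM (-0.21). Maf was at 492 and 924 CPM (0.91), Runx1 at 21.7 and 40 CPM (0.85) and Rxra, the partner of LXRα, at 146 and 213 CPM (0.54), none of them past the limit.

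Cebpb had the highest ratio of the 5563 genes. It encodes C/EBPβ, a factor of myeloid differentiation and of inflammatory and acute-phase genes, from a single exon at chr2:167688915-167690418 (GRCm38, plus strand). It stood at 91.9 CPM (95% Poisson interval 88.0 to 95.9) in Zeb2fl/fl and at 585 CPM (574 to 597) in Nr1h3fl/fl KCs, 6.37-fold higher (6.08 to 6.68). Zeb2KO KCs, at 52.4 CPM, were lower than both. The difference was not limited to a few cells. A Cebpb UMI was found in 16.4% of thinned Zeb2fl/fl and 66.7% of thinned Nr1h3fl/fl KCs (36.2% and 85.3% before thinning).

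The level of Cebpb also differed in every KC cluster. In clusters made without the called genes it was 205 and 591 CPM in the BC005537 cluster, 59.8 and 653 CPM in the Hbb-bs cluster, 32.9 and 379 CPM in the Rps26-ps1 cluster and 81.6 and 783 CPM in the Cxcl9 cluster. It was likewise higher in Nr1h3fl/fl in the B cell cluster, at 48.0 and 336 CPM in its 144 and 34 cells. A Cebpb UMI was found in 5.71% and 20.6% of thinned cells of the B cell cluster. This was read as background, and whether it came from B cells, free RNA or droplets with 2 cells was not tested. Over the alternatives in processing, the log2 ratio of 2.66 ranged from 2.51 to 2.83.

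**Figure D2:**
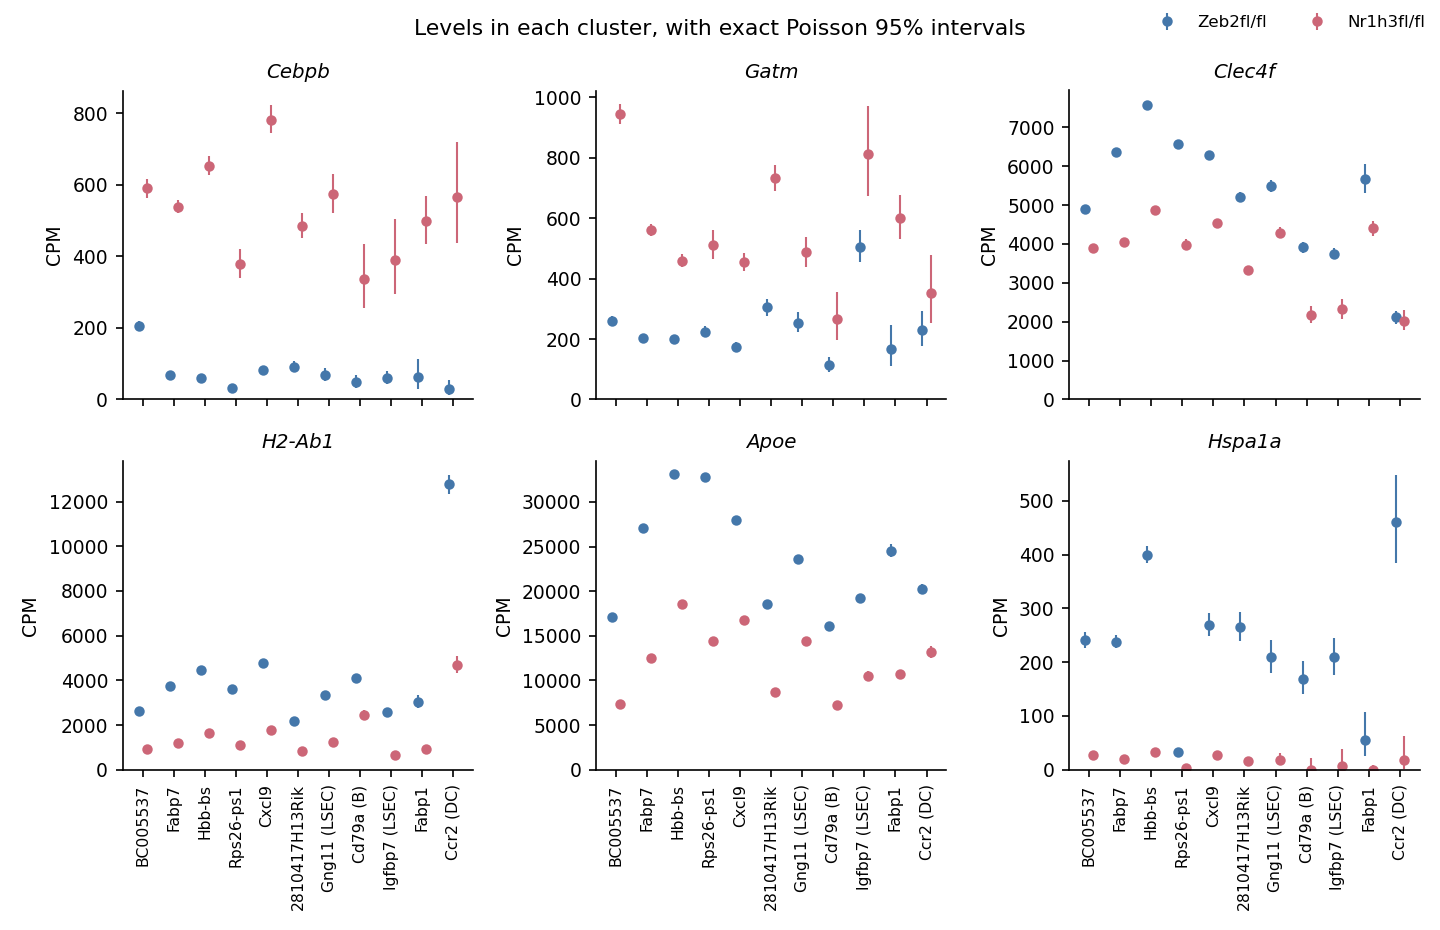
Levels (CPM, y axis) of 6 genes in each cluster (x axis, named by its leading gene; LSEC, B and DC mark clusters of endothelial, B and dendritic cells) for Zeb2fl/fl (blue) and Nr1h3fl/fl (red), with exact Poisson 95% intervals. Cebpb and Gatm are higher and H2-Ab1, Apoe, Hspa1a and Clec4f lower in Nr1h3fl/fl in every cluster shown. The intervals of Gatm and of Clec4f overlap between the libraries in the dendritic cell cluster.

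Of the 27 genes called higher, 26 were higher in all 7 KC clusters, which are parts of the same sums and not replicates. The share of all genes with the same sign in all 7 is not given here. Gatm, the first enzyme of creatine synthesis, followed Cebpb at 210 CPM (204 to 216) and 613 CPM (602 to 625), 2.92-fold higher (2.82 to 3.02), and a Gatm UMI was found in 35.3% and 67.6% of thinned KCs against 14.3% and 38.2% of the B cell cluster. Pira2, an activating immunoglobulin-like receptor, was at 98.4 and 220 CPM (1.15), Pou2f2, which encodes the transcription factor OCT2, at 173 and 371 CPM (1.10), Basp1 at 73.3 and 156 CPM (1.08) and Gstp2, a glutathione transferase, at 22.3 and 53.4 CPM (1.22). Fhod1, which acts on actin, was at 31.0 and 65.5 CPM (1.06), and Arrdc3, an arrestin-like adaptor, at 29.5 and 62.8 CPM (1.06). Pou2f2, Basp1, Fhod1 and Arrdc3 lay close to the limit, and with median-of-ratios size factors all 4 fell just short of it, at 0.98, 0.96, 0.94 and 0.95. With like-length genes taken off, Pou2f2, Fhod1, Arrdc3 and Pira2 were at 0.74, 0.78, 0.78 and 0.92 and lost the call. Cebpb, Gatm and Gstp2 stayed past the limit in both.

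The MHC class II genes were lower in Nr1h3fl/fl as a group. MHC class II molecules present peptides to CD4+ T cells, and the α and β chain genes, the invariant chain gene Cd74 and the H2-DM genes for peptide loading are switched on together by CIITA through shared promoter boxes. Of 6 measured, 5 were called lower and none higher, with a median of -1.31 beside 0.09 for all genes, of which 0.845% were called lower. The H2 genes of the group lie on chromosome 17. To show such boxes, the 150 bases before the start of H2-Aa and H2-Eb1 are given 5′ to 3′ (RefSeq, GRCm38.p6), with the Y box CTGATTGG and the CRE core TGACG, searched on both strands, in capitals. H2-Aa lies at chr17:34287824-34287973, minus strand, and H2-Eb1 at chr17:34305717-34305866, plus strand.
H2-Aa: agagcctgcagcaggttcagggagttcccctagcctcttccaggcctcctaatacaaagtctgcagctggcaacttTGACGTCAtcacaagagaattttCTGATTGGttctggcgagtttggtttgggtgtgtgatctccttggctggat
H2-Eb1: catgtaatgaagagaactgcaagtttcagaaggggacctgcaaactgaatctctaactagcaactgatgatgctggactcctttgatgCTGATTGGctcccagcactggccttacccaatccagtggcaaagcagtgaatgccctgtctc
The Y box begins 51 bases before the start of H2-Aa and 62 bases before that of H2-Eb1, and H2-Aa holds the CRE core on both strands, in overlapping matches that begin at 74 and 71 bases. The CRE core was not found before H2-Eb1, so of the strings searched the Y box is the one both stretches hold. In the same window the Y box was found in 3.4% and the CRE core in 13.5% of 27025 promoters. Neither string was found before H2-DMb1.

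Among the chain genes, H2-Ab1 (β chain of I-A) was at 3604 CPM in Zeb2fl/fl and 1270 CPM in Nr1h3fl/fl (log2 ratio -1.50), H2-Aa (α chain of I-A) at 3248 and 1362 CPM (-1.25) and H2-Eb1 (β chain of I-E) at 2107 and 803 CPM (-1.39). Zeb2KO KCs had 4304, 4081 and 3088 CPM of these genes. Cd74 was at 7538 and 2919 CPM (-1.37), H2-DMb1 at 399 and 193 CPM (-1.04) and H2-DMa, which was below the limit for a call, at 618 and 340 CPM (-0.86). All 6 were lower in 7 of 7 KC clusters. Ciita itself, chosen here after its values were seen, was under 20 CPM, with 250 UMIs (10.8 CPM) and 84 UMIs (4.65 CPM). With the median of genes of like transcript length taken off, H2-DMb1 fell short of the limit at -0.81, while the other 4 stayed past it.

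The whole distribution over cells was lower rather than a subset of cells. Zeb2fl/fl KCs thinned to 2000 UMIs held a median of 30 MHC class II UMIs (10th to 90th percentile 9 to 70), and Nr1h3fl/fl KCs held 9 (2 to 28). At least 3 such UMIs were found in 97.9% (97.4 to 98.3) and 89.6% (88.5 to 90.6) of cells, and in 99.8% and 96.4% before thinning. B cells also express these genes, and the B cell cluster held 2.89% of Zeb2fl/fl but 0.762% of Nr1h3fl/fl members. The summed B cell markers Cd79a, Cd79b and Ms4a1 were at 31.3 and 37.3 CPM in the KCs. In the B cell cluster there were 8.66 and 5.71 MHC class II UMIs for each UMI of these markers, and in KCs 541 and 176. The 9 dendritic cell markers summed to 721 and 713 CPM in KCs, of which Bst2, an interferon gene that many cells express, made up 701 and 682 CPM. The dendritic cell markers Ccr7, Cd209a and Flt3 summed to 0.904 and 0.277 CPM. For each UMI of these 3 markers there were 204 and 17.1 class II UMIs in the 30 and 6 cells of the dendritic cell cluster. In KCs there were 18687 and 23655. These ratios rest on few marker UMIs in KCs and on few cells in the dendritic cell cluster.

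MHC class I genes differed less. Of 11 measured, H2-T23, the gene of the non-classical molecule Qa-1, was called lower at 465 and 217 CPM (-1.09), and 3 lay within 0.25 and 7 below -0.25, with a median of -0.54. These are 27.3% and 63.6%, beside 47.9% and 17.4% of all genes. With like-length genes taken off, H2-T23 fell short at -0.86. H2-D1 was at 4307 and 2489 CPM (-0.79), H2-K1 at 1799 and 1801 CPM (0.00) and B2m, the light chain of all class I molecules, at 7326 and 7003 CPM (-0.07). The classical class I genes H2-D1 and H2-K1 thus stood at different ratios.

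**Figure D3:**
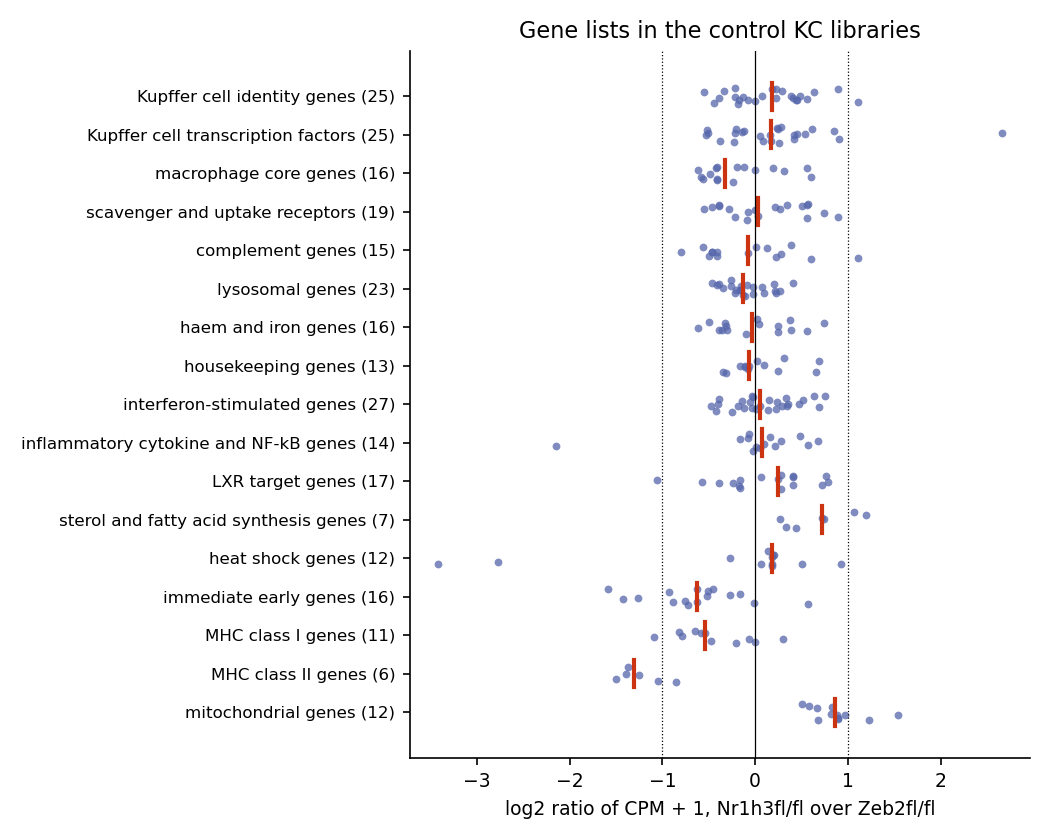
Each point is a gene of at least 20 CPM, with its log2 ratio of CPM + 1 (Nr1h3fl/fl over Zeb2fl/fl) on the x axis, in rows by gene list with the number of genes in parentheses, and the red bar is the median of the list. Identity, interferon and lysosomal genes lie around 0, MHC class II genes at a median of -1.31 and mitochondrial genes at 0.86.

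The inducible Hsp70 pair was lower among the heat shock genes. Hspa1a and Hspa1b are intronless neighbours that encode the same chaperone and are switched on by HSF1 through heat shock elements. Of 12 heat shock genes measured, these (16.7%, beside 0.845% of all genes) were called lower, 7 (58.3%, beside 47.9%) lay within 0.25 and the median was 0.18. The other 3 outside 0.25 were Hsph1 at 11.5 and 22.7 CPM (0.93), Hspa4l at 29.2 and 41.7 CPM (0.50) and Dnajb1 at 22.5 and 18.4 CPM (-0.28). Their upstream stretches (RefSeq, GRCm38.p6, minus strand; chr17:34972157-34972306 for Hspa1a and chr17:34959239-34959388 for Hspa1b) are shown because they differ in 1 of 150 bases, with the heat shock element GAANNTTC and the Y box CTGATTGG in capitals.
Hspa1a: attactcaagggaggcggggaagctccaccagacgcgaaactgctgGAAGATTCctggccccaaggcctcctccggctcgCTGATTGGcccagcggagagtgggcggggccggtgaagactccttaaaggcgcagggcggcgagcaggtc
Hspa1b: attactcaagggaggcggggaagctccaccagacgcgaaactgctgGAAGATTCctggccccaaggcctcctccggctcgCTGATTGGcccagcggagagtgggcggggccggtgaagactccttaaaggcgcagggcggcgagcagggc
The element begins 104 bases and the Y box 70 bases before the start of both genes, and the element was found in 4.02% of all promoters. Hspa1a was at 257 CPM in Zeb2fl/fl and 23.1 CPM in Nr1h3fl/fl (log2 ratio -3.42), and Hspa1b at 67.6 and 9.02 CPM (-2.77). Reads of such near-identical genes can be split between them in counting, so the pair was also summed. Together they were at 324 and 32.1 CPM, 10.1-fold lower in Nr1h3fl/fl (9.28 to 11), and at 465 CPM in Zeb2KO KCs. An Hspa1a UMI was found in 31.0% and 4.62% of thinned KCs, and in 50.8% and 8.29% before thinning. In thinned cells of the B cell cluster it was found in 21.4% of Zeb2fl/fl and in 0 of 34 Nr1h3fl/fl cells. By contrast Hspa8, the constitutive Hsp70, was at 750 and 849 CPM (0.18), Hsp90ab1 at 991 and 1123 CPM (0.18) and the endoplasmic reticulum chaperone Hspa5 at 443 and 505 CPM (0.19).

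Immediate early genes, which cells induce within minutes of a stimulus and also during tissue dissociation, were lower as well. Of 16 measured, 3 were called lower, 13 were below -0.25, 1 was above 0.25 and the median was -0.63. Over all genes 0.845% were called lower and 17.4% were below -0.25. Fos was at 187 and 68.8 CPM (-1.43), Jun at 182 and 75 CPM (-1.27) and Fosb at 24.5 and 7.53 CPM (-1.58), with 395, 455 and 35.5 CPM in Zeb2KO KCs. Junb was at 234.5 and 141 CPM (-0.73), Klf2 at 547 and 384 CPM (-0.51) and Klf6 at 138 and 138 CPM (-0.01). Cells with 20 or more immediate early UMIs in 2000 were 1.72% (1.33 to 2.19) of Zeb2fl/fl and 0.184% (0.067 to 0.399) of Nr1h3fl/fl KCs, and 18.1% and 6.18% before thinning, against 7.14% and 0% of the thinned B cell cluster. The preparation of each library may differ, and its part in these genes was not tested.

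Among lipid genes the LXR targets did not move together. Of 17 measured targets of LXR, Apoe was called lower, 6 (35.3%) lay within 0.25, 8 above it and the median was 0.24, where 0.845% of all genes were called lower and 47.9% lay within 0.25. Apoe, the apolipoprotein of remnant particles, was at 27078 CPM in Zeb2fl/fl, 12969 CPM in Nr1h3fl/fl and 25828 CPM in Zeb2KO KCs (control log2 ratio -1.06), lower in 7 of 7 KC clusters, and at -0.83 with like-length genes taken off. The cholesterol exporter Abca1 was on the other side at 139 and 240 CPM (0.78), as were the lipase gene Lpl at 401 and 681 CPM (0.76) and the desaturase gene Scd2 at 34.6 and 57.7 CPM (0.72). Pltp, a phospholipid transfer protein, was at 710.5 and 478 CPM (-0.57). The sign of the median of this list was not kept under all alternatives, which ranged from -0.06 to 0.27.

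Sterol and fatty acid synthesis genes, targets of SREBP factors, were all on the higher side. Of 24 listed, 7 reached 20 CPM, 2 were called higher, all 7 were above 0.25 and the median was 0.72. Over all genes 0.485% were called higher and 34.7% were above 0.25. Hmgcs1, an enzyme of the mevalonate pathway, was called at 11.9 and 28.5 CPM (1.20). Srebf2, which encodes a SREBP factor, was at 13.5 and 23.3 CPM (0.75). A gene whose level is near 20 CPM enters the count only if its higher library reaches it. With like-length genes taken off, Hmgcs1 fell short of the limit at 0.97, and Acly, at 110 and 133 CPM (0.26), turned to -0.08.

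Slpi and Saa3, an antimicrobial and an acute-phase gene, were called lower with the lowest ratios of all, and both came from few cells. A cluster led by Slpi, Saa3, Fn1, Alox15 and Prg4 held 66 of 4293 Zeb2fl/fl members (1.54%, 1.19 to 1.95) and 1 of 3673 Nr1h3fl/fl members (0.027%, 0.001 to 0.152). Its cells had a median of 13018.5 UMIs in Zeb2fl/fl and a median of 3 Clec4f UMIs, so they passed the Clec4f rule at a much lower density than other members. Its KC markers averaged a log2 fold of -1.87 against the other cells, lower than in the B cell cluster (-0.85) and the dendritic cell cluster (-1.57), which were left out, so its markers go against counting its cells as KCs. It was kept in the sums because it matched none of the marker lists of other types used here, which do not cover every type, and it was given no cell type name. It made up 3.73% of the summed Zeb2fl/fl UMIs but 95.9% of the Slpi UMIs and 94.6% of the Saa3 UMIs.

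With that cluster in the sums, Slpi had 6830 UMIs (294 CPM) in Zeb2fl/fl and 4 in Nr1h3fl/fl, and Saa3 had 4992 UMIs (215 CPM) and 0. Fn1 (fibronectin) was at 247 and 1.72 CPM, Prg4 (lubricin) at 115 and 0.055 CPM and the lipoxygenase gene Alox15 at 106 and 0.055 CPM. Zeb2KO KCs, which had a cluster of 43 cells led by Fn1, Saa3 and Alox15, held 55.3 CPM of Slpi, 105 CPM of Saa3 and 112 CPM of Fn1. Outside the cluster, 279 Slpi UMIs (12.5 CPM) remained in Zeb2fl/fl against 4 in Nr1h3fl/fl, and 269 Saa3 UMIs against 0. The B cell cluster of Zeb2fl/fl held 12.7 CPM of Slpi (9 UMIs, 5.81 to 24.1) and 11.3 CPM of Saa3 (8 UMIs, 4.88 to 22.3). Its droplets also held KC RNA, with Clec4f at 3911 CPM. Whether the remainder was background or expression in KCs was not tested.

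Without the cluster, 25 genes were called higher and 30 lower among 5541 genes. Of the 47 genes called lower, 19 lost the call, and 16 of these had over 50% of their Zeb2fl/fl UMIs in that cluster. In 8 of the 19, which were Slpi, Saa3, Prg4, Alox15, Fn1, Thbs1, Serpinb2 and Retnla, the ratio stayed past the limit (-3.70 to -1.02) but the level fell under 20 CPM. In the other 11 the ratio itself fell short of the limit. Among the latter were S100a10 (-1.80, and -0.39 without the cluster), the adhesion gene Icam2 (-1.57 and -0.38), the fatty acid binding protein gene Fabp4 (-1.74 and -0.45), and Ednrb, Cd9 and Ccl9, which turned to 0.44, 0.27 and 0.077. Ednrb, Cd9, Thbs1, Serpinb2 and Retnla were chosen after their values were seen. Npl, which breaks down sialic acid, did not depend on it: at 55.8 and 11.7 CPM (log2 ratio -2.16) it was -2.19 without the cluster and lower in 7 of 7 KC clusters. In all, 33 of the 47 genes called lower were lower in all 7 KC clusters.

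Several programmes of macs held no called gene. None of 27 interferon-stimulated genes, 23 lysosomal genes, 19 scavenger and uptake receptors, 16 haem and iron genes, 16 macrophage core genes or 13 housekeeping genes was called in either direction. As 1.33% of all genes were called, few or no calls are what lists of this size would hold at the rate of all genes. Within 0.25 lay 48.1% of the interferon, 65.2% of the lysosomal and 61.5% of the housekeeping genes, but 31.6% of the scavenger, 31.2% of the haem and iron and 31.2% of the macrophage core genes, beside 47.9% of all genes. Below -0.25 lay 50% of the macrophage core and 43.75% of the haem and iron genes, and 15.4% to 26.3% of the other lists, beside 17.4% of all genes. The medians of the 6 lists, in the order first given, were 0.05, -0.13, 0.03, -0.04, -0.32 and -0.07. Those of the interferon, scavenger and housekeeping genes took either sign over the alternatives (-0.07 to 0.13, -0.09 to 0.09 and -0.18 to 0.07). The median of the macrophage core genes stayed negative, from -0.44 to -0.16. The interferon gene Ifitm3 was at 3465 and 3326 CPM (-0.06), Bst2 at 701 and 682 CPM (-0.04), and the lysosomal protease gene Ctsb at 5283 and 5632 CPM (0.09). Of the macrophage core genes, the C1q chains were on the lower side at -0.41 (C1qa), -0.56 (C1qb) and -0.41 (C1qc), and Adgre1, which encodes the F4/80 antigen of the sort, on the higher side at 782 and 971 CPM (0.31). The most abundant genes within 0.1 of each other were Tmsb4x (32536 and 33581 CPM), Fth1 (7747 and 7946 CPM), B2m, Ctsb and Fcer1g (4364 and 4371 CPM).

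Cytokine and complement genes held 1 or 2 calls per list, and the calls of Cxcl2 and Ccl9 rested on the Slpi cluster. With 13 to 15 genes measured per list, 1 call is enough to exceed the share of all genes. Of 14 inflammatory genes measured, Cxcl2 (7.14%) was called lower, with 68.2% of its Zeb2fl/fl UMIs in the Slpi cluster, and 9 (64.3%) lay within 0.25. Without that cluster Cxcl2 was at -0.62 and lost the call. Of 13 chemokine genes, Ccl9 and Ccl5 (15.4%) were called lower and 8 (61.5%) lay within 0.25, beside 0.845% and 47.9% of all genes. Ccl9 was at 40.8 and 14 CPM, with 69.4% of its Zeb2fl/fl UMIs in the cluster. Without the cluster it was at 0.077 and lost the call. Ccl5 was at 39.2 and 13.6 CPM (-1.46) with no UMIs there. Complement genes had a median of -0.07 over 15 measured, with Cfb at 52.1 and 29.5 CPM (-0.80). Cd55 (6.67%) was called higher, beside 0.485% of all genes. Within 0.25 lay 26.7% of the complement genes and below -0.25 lay 46.7%, beside 47.9% and 17.4% of all genes.

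Cell states were compared in cells thinned to 2000 UMIs, which left out 139 and 244 shallower cells. A Timd4 UMI was found in 64.3% (62.7 to 65.8) of Zeb2fl/fl and 59.8% (58.1 to 61.5) of Nr1h3fl/fl KCs, against 40% and 23.5% in the B cell cluster, and in 87.6% and 81.8% of KCs before thinning. In Zeb2KO KCs, a mix of cells with and without a kept copy of Zeb2, it was found in 19.6%. At least 3 UMIs of S or G2/M genes were found in 14% (12.9 to 15.2) and 16.1% (14.9 to 17.4), below the 26.4% and 23.5% of the B cell cluster, so these shares were not read as dividing cells. Without thinning they were 50% and 45%, in the opposite order. At least 5 interferon UMIs were found in 99.3% and 99.6% of thinned KCs, and in 67.9% and 64.7% of the B cell cluster. Ccr2 or Cx3cr1, markers of recent monocyte origin, were found in 0.982% and 1.47% of thinned control KCs and in 13.8% of thinned Zeb2KO KCs, while in the B cell cluster they were found in 0 of 140 and 1 of 34 cells.

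The clusters, made again without the called genes, differed in their shares between the libraries, and the Slpi cluster held 1 Nr1h3fl/fl member. The BC005537 cluster held 21.9% of Zeb2fl/fl and 27.6% of Nr1h3fl/fl members, the Fabp7 cluster 20.1% and 26.5%, the Hbb-bs cluster 20.9% and 18.3% and the Cxcl9 cluster, with Cxcl10 and Mmp12, 6.52% and 7.41%. Hbb-bs is only the label of its cluster. Haemoglobin genes were not used to make the clusters, and an Hbb-bs UMI was found in 1.43% and 3.10% of all KCs, so most cells of that cluster held none. The Rps26-ps1 cluster, led by ribosomal protein genes and pseudogenes, held 15.2% and 6.92%. A dividing cluster led by 2810417H13Rik and Top2a held 4.26% (3.68 to 4.91) and 6.26% (5.50 to 7.09). The Fabp1 cluster, led by hepatocyte genes such as Gsta3 and Car3, held 0.652% and 2.48%, and the LSEC clusters held 3.0% and 2.72% (led by Gng11) and 2.19% and 0.653% (led by Igfbp7). The median depth of the clusters ran from 3326 to 13018.5 UMIs in Zeb2fl/fl and from 2918 to 7856.5 UMIs in Nr1h3fl/fl, and the part of depth in the shares was not tested.

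**Figure D4:**
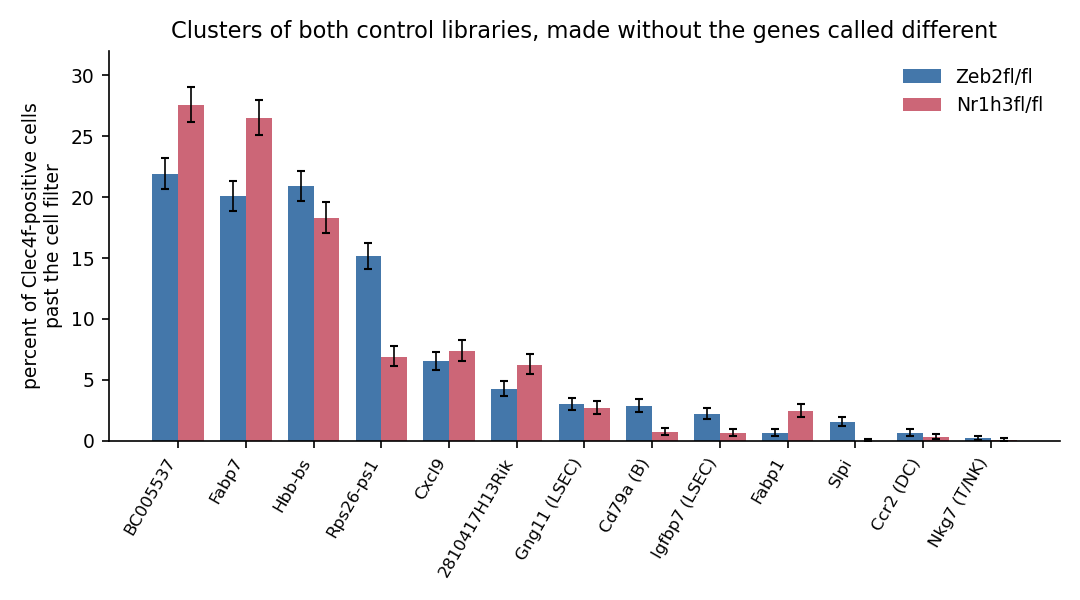
Share of Clec4f-positive cells past the filter (y axis, percent) in each cluster (x axis, named by its leading gene) for Zeb2fl/fl (blue, of 4293) and Nr1h3fl/fl (red, of 3673), with exact 95% binomial intervals. The BC005537 and Fabp7 clusters are larger in Nr1h3fl/fl, the Rps26-ps1 cluster is larger in Zeb2fl/fl, and the Slpi cluster is nearly absent from Nr1h3fl/fl.

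Measures of library quality moved with the comparison. All 12 measured mitochondrial genes were above 0.25, with a median of 0.86, and mt-Nd2 (1047 and 2447 CPM) and mt-Nd3 (262 and 765 CPM) were called higher. They made up 2.92% of UMIs in Zeb2fl/fl, 4.83% in Nr1h3fl/fl and 3.01% in Zeb2KO KCs. The ratio also followed transcript length. Over 5 bins of equal size, from genes with the shortest transcripts (168 to 1499 bases) to those with the longest (5001 to 93092 bases), the median was -0.13, -0.13, 0.11, 0.30 and 0.36. Between Zeb2KO and Zeb2fl/fl the same medians lay between -0.07 and 0.05. Of the 47 genes called lower, 26 were in the shortest bin, and of the 27 called higher, 7. Cebpb, with 1504 bases, is short but higher. With the median of genes of like length taken off, 53 of the 74 calls were kept.

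**Figure D5:**
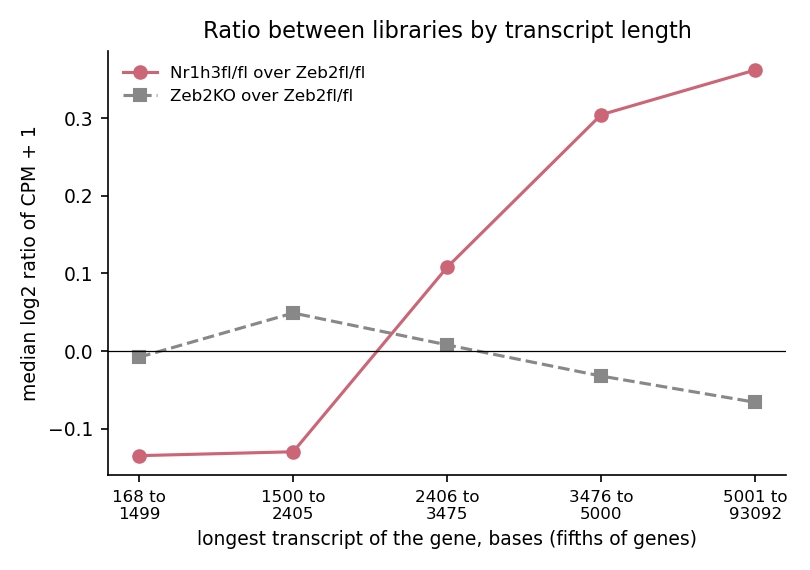
Median log2 ratio of CPM + 1 (y axis) over 5 equal bins of genes by the length of the longest transcript (x axis, bases), for Nr1h3fl/fl over Zeb2fl/fl (red circles) and for Zeb2KO over Zeb2fl/fl (grey squares). The control ratio goes from -0.13 to 0.36 with length, and the Zeb2KO ratio stays between -0.07 and 0.05. Both share the Zeb2fl/fl library.

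Markers of other cell types moved little in the KCs, with exceptions. The summed lists were at 277 and 340 CPM for 20 hepatocyte markers, 288 and 233 CPM for 15 LSEC markers, 116 and 71.9 CPM for 11 stellate cell and fibroblast markers, 35.2 and 39.4 CPM for B cell markers, 586 and 619 CPM for monocyte markers and 721 and 713 CPM for dendritic cell markers. Of the 7 monocyte markers 1 reached 20 CPM, namely Plac8, a leading gene of the Fabp7 cluster. Most of the dendritic cell sum was Bst2, as given above, so these sums say little about RNA of monocytes or dendritic cells. Neutrophil markers were at 52.3 and 57.6 CPM, and T and NK cell, platelet and cholangiocyte markers were under 5 CPM in both libraries. Clec4g of LSECs was called lower at 27.7 and 11.8 CPM (-1.16), and lost the call at -0.93 with like-length genes taken off. Ecm1, listed as a stellate cell marker, was called lower at 97.2 and 46.1 CPM (-1.06, and -0.47 without the Slpi cluster). It was not particular to stellate cells, with a UMI in 28.8% and 18.5% of KCs and 352 CPM in WT colonic macs. The part of other cell types in the results was not tested. The 4 haemoglobin genes measured were all called lower with a median of -1.40, but this rested on 1 cluster. The Hbb-bs cluster held 2116 of the 2166 Hbb-bs UMIs of Zeb2fl/fl, while Hbb-bs, Hba-a1 and Hba-a2 were higher in Nr1h3fl/fl in 5 of 7 KC clusters. An Hbb-bs UMI was found in 1.43% of Zeb2fl/fl and 3.10% of Nr1h3fl/fl KCs (0.504% and 1.25% of thinned cells). With no cell filter the median was 1.74.

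The animals were checked for sex, since the methods name both. No thinned cell held a Xist UMI (0 of 3769 Zeb2fl/fl KCs, which allows a share of up to 0.0796%, and 0 of 3267 Nr1h3fl/fl KCs, up to 0.0918%). These limits are on cells with a UMI, not on cells that express the gene. No Xist UMI was found in unthinned KCs either (0 of 3908 and 0 of 3511). A UMI of a Y-linked gene was found in 25.8% and 35.9% of thinned cells, and in 54.6% and 61.3% before thinning. Ddx3y was at 77.5 and 113 CPM (0.55). Both control libraries thus held RNA of male cells, and RNA of female cells was not detected at this depth.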

How the data were processed

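The authors deposited, for each of 11 libraries, a table of raw UMI counts per gene and cell barcode, made with Cell Ranger from 10x Genomics 3′ libraries aligned to mm10, with cells called by that software and no normalisation. The annotation release behind it is not given in the sources used here. Each table held 27998 genes. The library totals were 26750299 UMIs (Zeb2fl/fl) and 19717242 UMIs (Nr1h3fl/fl), and the Nr1h3-deficient KC library was not analysed here.

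The quality filter took out cells whose log UMIs or log genes lay over 3 median absolute deviations from their library, or whose mitochondrial share lay as far above it (317 Zeb2fl/fl and 186 Nr1h3fl/fl barcodes, members or not). The remaining cells of both libraries were clustered with scanpy 1.11.5 (Python 3.11.15, leidenalg 0.10.2) on 2000 variable genes, 30 components, 15 neighbours and a resolution of 0.8, and clusters of other cell types, known by marker lists, were left out. For cluster shares the clustering was repeated without the called genes. The doublet caller marked 0% and 0.0272% of cells and was taken not to have worked, so no doublets were removed.

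UMIs were summed over the KCs of a library and scaled to CPM with a pseudocount of 1. A gene was compared if it reached 20 CPM in either library, and called if its log2 ratio was 1 or more, or -1 or less. The calculation was tested on simulated data. With 1 library per group no p-value was computed. Intervals (95%; exact Poisson, Clopper-Pearson and, for ratios, conditional binomial, scipy 1.17.1) cover counting error only, and a count of 0 was given an upper limit of 3 counts. Shares of cells were taken after thinning each cell to 2000 UMIs at random. TMM factors came from edgeR 4.0.16 (R 4.3.3). Transcript lengths came from the GENCODE basic annotation (GRCm38; 26646 of 27998 symbols matched), and sequences from RefSeq, where H2-Ab1 had no entry.

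The members and gene lists were chosen with earlier results of these data known. Genes named were the 10 highest and 10 lowest ratios at 50 CPM or more (apart from genes of haemoglobin, immunoglobulins, ribosomes, mitochondria and the sex chromosomes), the 5 most abundant within 0.1, all identity genes, factors and loxP-flanked genes, and of each other list the 3 highest, 3 lowest and 3 most abundant. Ciita and the mitochondrial genes mt-Nd2 and mt-Nd3, named because few genes of their group were called, and the genes that name clusters were chosen after their values were seen. The alternatives changed the scaling, the cell filter, the Clec4f minimum, thinning, the cells kept, transcript length, the pseudocount, the floor of 20 CPM and the limit. Leaving out the Slpi cluster and leaving mitochondrial UMIs out of the totals were added after seeing the data. Of the genes the rule names, some are not reported here.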

Additional observations from a re-analysis of the deposited data

How the results depend on the processing

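With 1 library per group, no replicate could be left out. No paired analysis was possible because each genotype had a single library and no result comes from a test. Of the 74 calls, 53 to 74 were kept under the 13 alternatives that recompute every gene, and all 74 kept their direction except under 2 of them. With no cell filter the haemoglobin genes reversed (Hbb-bt 1.28, Hbb-bs 1.72, Hba-a1 2.05, Hba-a2 1.76; erythroid marker median 1.74), and without the Slpi cluster Ednrb, Cd9 and Ccl9 reversed to 0.44, 0.27 and 0.077.

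The count of genes called higher, 27, was 16 with TMM factors, 13 with size factors, 14 with a pseudocount of 5 CPM and 45 in thinned cells, and the count called lower, 47, was 30 without the Slpi cluster. With a floor of 5 CPM 167 genes were called (66 higher, 101 lower), with one of 50 CPM 36 (11 and 25), and with no floor 254 (92 and 162). With a log2 limit of 0.58, 631 were called, and the split turned to 465 higher and 166 lower.

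The MHC class II median of -1.31 was -1.41 with TMM factors, -1.43 with size factors, -1.30 with no cell filter, -1.33 with 3 or more Clec4f UMIs, -1.39 in thinned cells, -1.08 with like-length genes taken off, -1.30 without the highest doublet scores, -1.36 without the Slpi cluster and -1.28 with mitochondrial UMIs left out. The Timd4 shares (Zeb2fl/fl and Nr1h3fl/fl) were 87.6% and 81.8% unthinned, 77.7% and 73.3% at 3000 UMIs and 30.2% and 25.8% with 1 more UMI required. The S or G2/M shares were 50% and 45% unthinned, 24.3% and 26.4% at 3000 UMIs and 7.32% and 10.1% with 1 more UMI required. Genes under 20 CPM, such as Ciita, are limited by depth, and with 1 library each the difference between the genotypes and that between any pair of libraries cannot be told apart.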

Other observations

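Genes of a CD206hi, endothelium-associated KC state were on the higher side in the Nr1h3fl/fl control, apart from Fabp4. Of 5 measured, 4 were above 0.25, beside 34.7% of all genes, none was called higher and 1 was called lower, beside 0.485% and 0.845% of all genes. The median of 0.51 fell to 0.20 with like-length genes taken off, and without the Slpi cluster Fabp4, at -0.45, was not called. The mannose receptor gene Mrc1 (CD206) was at 473 and 702 CPM (log2 ratio 0.57), the fatty acid transporter gene Cd36 at 56.9 and 96.0 CPM (0.74), and Pecam1 (CD31) at 29.9 and 42.9 CPM (0.51). All 3 were higher in 7 of 7 KC clusters, as was Cdh5 (VE-cadherin) at 380 and 521 CPM (0.45). Zeb2KO KCs, which share the Zeb2fl/fl control, had 297, 102 and 32.1 CPM of Mrc1, Cd36 and Pecam1.

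Of 7 measured genes of recently monocyte-derived KCs, Fn1 and S100a10 were called lower and 5 were below -0.25, with a median of -0.46. Over the alternatives that median ranged from -0.58 to -0.14. Over all genes 0.845% were called lower and 17.4% were below -0.25. Lgals3 (galectin-3) was at 739 and 535 CPM (-0.46) and lower in 7 of 7 KC clusters, while Plac8 was at 578 and 612 CPM (0.08). Without the Slpi cluster neither Fn1 (-2.45, then under 20 CPM) nor S100a10 (-0.39) was called.

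Division genes held 1 call. None of 9 measured S phase genes and 1 of 6 G2/M genes was called, namely Kif23, which acts in the last step of cell division, at 10.7 and 26.4 CPM (1.23), where 1.33% of all genes were called. All 28 listed G2/M genes summed to a level 1.29-fold higher (1.25 to 1.33, counting error only) in Nr1h3fl/fl. Of the 6 that reached 20 CPM, 3 (50%) were above 0.25, beside 34.7% of all genes. The replication clamp gene Pcna was at 79.9 and 79.1 CPM (-0.02) and Hmgb2 at 125 and 140 CPM (0.16). Top2a was at 14.8 and 25.9 CPM (0.76). Like Kif23, it reached 20 CPM only in Nr1h3fl/fl, where it was higher, so the floor favoured that direction.

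Among nuclear long non-coding RNAs none of 5 was called, which at the 1.33% of all genes says little about them. Malat1 was at 27026 and 24363 CPM (-0.15) and Neat1 at 169 and 245 CPM (0.53).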
